A study of Saccharomyces cerevisiae with 4 samples.

Results

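The ATG genes of budding yeast encode the machinery of autophagy, in which a double membrane grows around cytoplasm and carries it to the vacuole for breakdown. Members were all genes whose standard name in the R64 reference gene table is ATG followed by a number. That rule uses no measured value, though the set was chosen with earlier results of these data known. The reference holds 37 such genes, against 6172 genes and unmatched features in the array table. Of the 37, 36 had a row in the table, 35 had a value on at least 1 array, and the 26 measured on each of the 4 arrays were tested. ATG2 had no value on any array, and ATG44 was not analysed here. The genes once called ATG6 and ATG24 now carry the names VPS30 and SNX4 and were taken as partners, not as members.

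Autophagy starts with the Atg1 kinase and its scaffold proteins, which gather membrane vesicles carrying Atg9. A phosphatidylinositol 3-kinase marks the growing membrane, and a pair of ubiquitin-like systems attaches Atg8 to its lipid. Receptors tie chosen cargo, such as mitochondria or vacuolar enzymes, to Atg8, and hydrolases in the vacuole digest what arrives. Several ATG transcripts, ATG8 above all, are known to rise when yeast is starved of nitrogen.

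The samples were 4 two-colour arrays of Saccharomyces cerevisiae carrying an rlm1 mutation, which affects the transcription factor Rlm1 of the cell wall integrity pathway. On every array, RNA of cells given zymolyase, an enzyme mix that digests wall glucan, at 5 units per ml and taken at 3 hours was set against RNA of a part of that culture left without enzyme. Both parts grew in rich medium at 24 °C and both carried the mutation, and no array of another strain was analysed here. The design text gives 2 cultures with 2 dye-exchanged arrays each: zymolyase RNA was labelled with Cy3 on arrays 1 and 3 and with Cy5 on arrays 2 and 4.

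Array 2 stood apart before any result: it had 1393 blank features, against 550 to 664 on the others, and an SD over features of 0.63, against 0.32 to 0.35. RLM1 had a value on 0 of the 4 arrays, so the mutation could not be checked. Arrays 2 and 4 were multiplied by -1 so that each value is zymolyase over untreated, and the log base was taken as 2. The sources used here do not name the ratio's numerator. It was read as Cy3 over Cy5, a likely and not a settled reading, because that puts stress genes such as HSP12 (mean log2 ratio 2.75) and GPD1 (1.84) on the zymolyase side. Not all stress genes lie there: the chaperone genes HSP26 (-0.11), SSA1 (-0.13) and SSA3 (-0.33) had means of the other sign and did not pass the test. SSA3 had 1.34, -2.99, 1.12 and -0.77 on arrays 1 to 4, so its sign went with the dye. Without the turning, all 4 of its values are positive, and the cause was not tested. These 5 genes were chosen after their values were seen. The opposite reading turns every sign given here.

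Among the ATG genes, 1 of 26 passed the test, ATG34, which rose, and none fell. That is 3.85% of the members higher, beside 2.35% of all 4730 genes tested (111 higher) and 0.803% lower (38 lower), or 3.15% in either direction. With each array centred on its median the split over all genes was 83 higher and 14 lower, and with the arrays scaled to equal spread it was 86 and 12. At an unadjusted p under 0.05, ATG34 was again the only member past the threshold, beside 12.5% of all genes. In limma's fit with a dye term on the 4 arrays, no member passed the adjusted threshold, beside 1.63% of all genes. That fit counts the arrays of a culture as separate replicates.

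The 26 tested members had a median mean log2 ratio of 0.08, with the middle part of the list, between its quartiles, from -0.07 to 0.23. The median over all genes tested was -0.01. A positive mean was found for 17 members and a negative one for 9, beside 47.4% positive over all genes. Without array 2 the members' median was 0.02, and that of all genes was -0.03. With the standard error that limma gave all genes alike, the 95% interval of each of the 26 members lay within a 2-fold change either way, as it did for 4655 of the 4730 genes. That interval takes no account of members whose own arrays scatter widely.

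**Figure D1:**
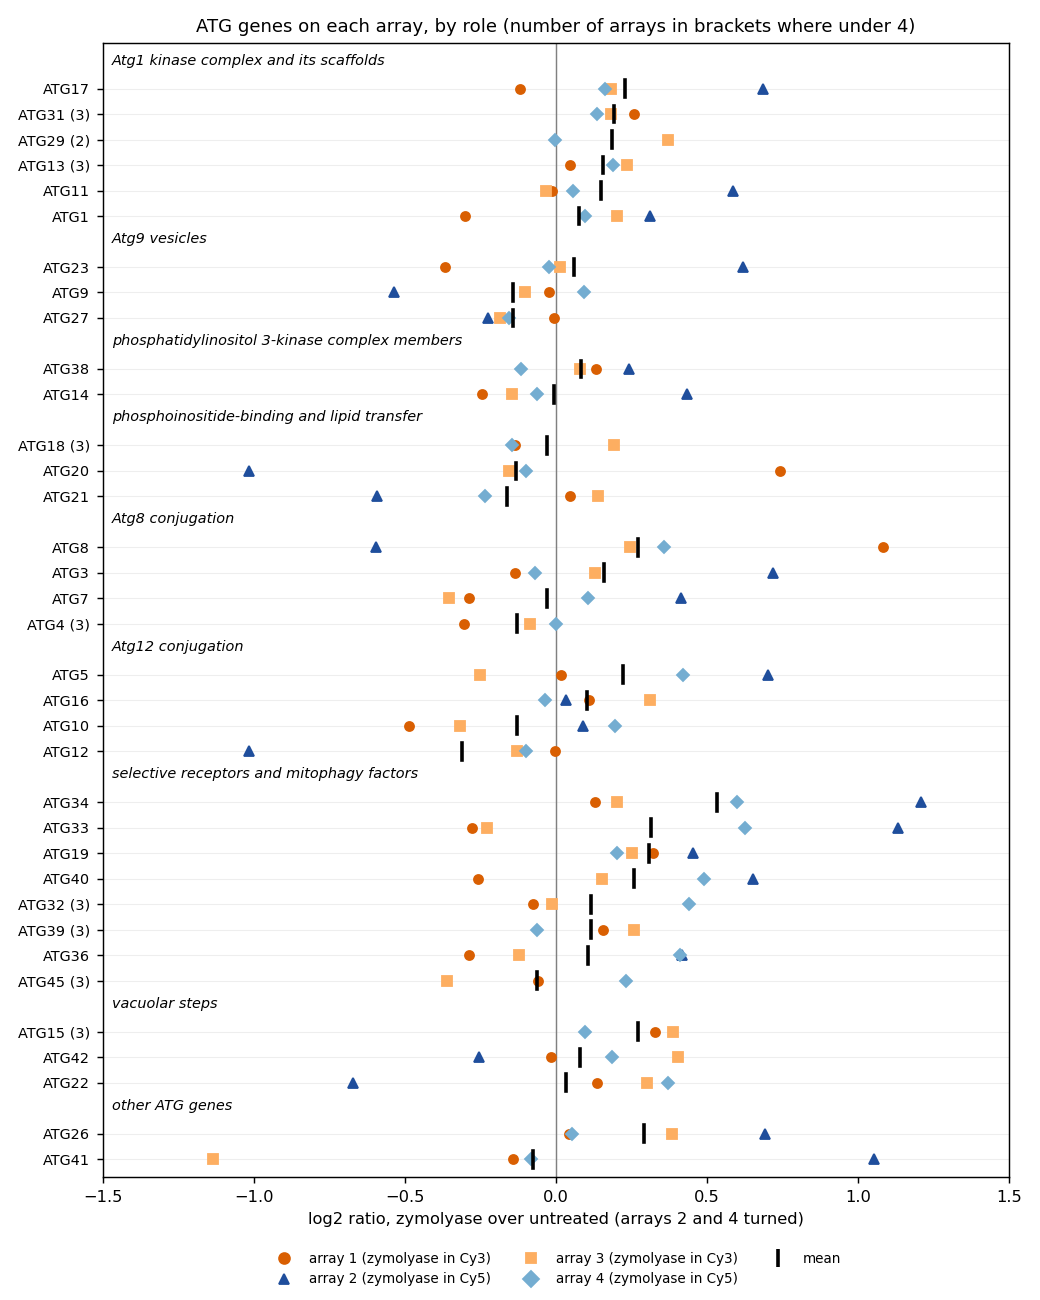
Log2 ratio of zymolyase over untreated on each array (x axis) for the 35 ATG genes with a value, grouped by role (y axis, largest mean on top of each group), with orange marks for zymolyase in Cy3, blue marks for zymolyase in Cy5 and a black bar for the mean of the arrays with a value. ATG34 has the largest mean at 0.53 and ATG12 the lowest at -0.31, and most rows have marks on either side of 0.

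The receptors of selective autophagy, listed with mitophagy factors, held the one call and, with 5 tested members, a median of 0.31. The median of this group was -0.26, 0.65, 0.15 and 0.49 on arrays 1 to 4, and 0.13 without array 2. ATG34, a receptor that brings alpha-mannosidase to the vacuole in starved cells, had log2 ratios of 0.13, 1.21, 0.20 and 0.60 on arrays 1 to 4. All 4 were positive, and the values of arrays 2 and 4 were above those of arrays 1 and 3. The mean was 0.53 ± 0.49 (SD, n = 4 arrays), a 1.45-fold increase (adjusted p = 0.037 in limma). The call was close to the limit, since the smallest mean called in any gene was 0.51 in size. Without array 2 the mean was 0.31. The adjusted p was 0.11 with a dye term, 0.089 with median centring and 0.078 with the arrays scaled to equal spread. With any 1 array left out ATG34 did not pass (adjusted p between 0.35 and 0.91), as held for most called genes: 9 to 33 genes of the whole table were then higher.

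ATG19 lies next to ATG34 on chromosome XV and encodes the related receptor of the cytoplasm-to-vacuole pathway, a route that delivers vacuolar enzymes in growing cells. It had values of 0.32, 0.45, 0.25 and 0.20 on arrays 1 to 4, the most even series among the tested members with a mean over 0.25 in size. Its mean of 0.31 ± 0.11 (SD, n = 4 arrays) did not pass (adjusted p = 0.43). As the genes are related, their spots may share labelled cDNA, and the probes were not analysed here. A positive value on all 4 arrays was found for 3 members in all, ATG34, ATG19 and ATG26 (11.5%), beside 7.99% of all genes. A negative value on all 4 was found for 2, ATG12 and ATG27 (7.69%), beside 8.79%.

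The other 3 tested genes of this group were not called, and 2 of them, ATG33 and ATG36, changed sign with the dyes. ATG33, which encodes a mitochondrial outer membrane protein used in mitophagy, was negative on arrays 1 and 3 (-0.28, -0.23) and positive on arrays 2 and 4 (1.13, 0.63). Its mean of 0.31 ± 0.69 (adjusted p = 0.41) therefore combined opposite signs, and was 0.04 without array 2. ATG40, a receptor for the endoplasmic reticulum, had values of -0.26, 0.65, 0.15 and 0.49 on arrays 1 to 4 (mean 0.26 ± 0.40, adjusted p = 0.56). The peroxisome receptor gene ATG36 had values of -0.29, 0.42, -0.12 and 0.41 and a mean of 0.10 ± 0.36.

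Receptor genes without a value on array 2 were not tested. The mitophagy receptor gene ATG32 had -0.08, -0.01 and 0.44 on arrays 1, 3 and 4. ATG39, whose product serves the breakdown of nuclear envelope, had 0.15, 0.26 and -0.06, and ATG45 had -0.06, -0.36 and 0.23. None of these 3 genes had a single sign on its arrays.

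The genes that start autophagy had small positive means. ATG1, the kinase itself, had log2 ratios of -0.30, 0.31, 0.20 and 0.10 on arrays 1 to 4, with a mean of 0.08 ± 0.27 (SD, n = 4 arrays; adjusted p = 0.95). ATG17, the scaffold of bulk autophagy, had -0.12, 0.68, 0.18 and 0.16 (mean 0.23 ± 0.33, adjusted p = 0.65). Without array 2 the mean of ATG17 was 0.08. ATG11, the scaffold of selective autophagy, had -0.01, 0.58, -0.03 and 0.05, so that its mean of 0.15 came from array 2 and was 0.00 without it. None of the 3 tested genes of this group passed.

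The remaining scaffold genes had fewer values. ATG13, which encodes the regulator of Atg1 under nutrient control, had 0.05, 0.23 and 0.19 on arrays 1, 3 and 4. ATG31 had 0.26, 0.18 and 0.14 on the same arrays. These 6 values are all positive, with 0.26 the highest. ATG29 had 0.37 on array 3 and -0.0026 on array 4 only, and it overlaps its neighbour SET6 in the reference, so their signals may mix.

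Atg9 vesicle genes, which deliver membrane, had a median of -0.14 over 3 genes with none past the test. ATG9, the membrane protein of these vesicles, had -0.02, -0.54, -0.10 and 0.09 on arrays 1 to 4 (mean -0.14 ± 0.27, adjusted p = 0.85). ATG27, which helps Atg9 travel, was negative throughout, with -0.01, -0.23, -0.19 and -0.16 (mean -0.14 ± 0.10, adjusted p = 0.85). ATG23, a further Atg9 trafficking gene, had -0.37, 0.62, 0.01 and -0.02 and a mean of 0.06 ± 0.41.

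Subunits of the autophagy-specific phosphatidylinositol 3-kinase complex had small means. ATG14, which directs the complex to autophagy, had -0.25, 0.43, -0.15 and -0.06 on arrays 1 to 4 (mean -0.01 ± 0.30). ATG38, which holds the complex together, had 0.13, 0.24, 0.08 and -0.12 (mean 0.08 ± 0.15). Neither passed, with adjusted p values of 1.00 and 0.94.

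Of the genes of proteins that bind phosphoinositides, ATG20 and ATG21 were tested, and neither passed. The sorting nexin gene ATG20 had 0.74, -1.02, -0.16 and -0.10 on arrays 1 to 4. Its mean was -0.13 ± 0.72, and 0.16 without array 2. ATG21 was above 0 on arrays 1 and 3 (0.05, 0.14) but not on arrays 2 and 4 (-0.59, -0.24; mean -0.16 ± 0.33, adjusted p = 0.81), and its mean was -0.02 without array 2. ATG18 had -0.14, 0.19 and -0.15 on arrays 1, 3 and 4 and was not tested.

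ATG8 encodes the ubiquitin-like protein that coats the growing membrane, and its arrays disagreed widely. Its log2 ratios were 1.08, -0.60, 0.24 and 0.36 on arrays 1 to 4, with a mean of 0.27 ± 0.69 (SD, n = 4 arrays; adjusted p = 0.52). The highest value came from array 1 and the only negative one from array 2. Without array 2 the mean was 0.56, and without array 1 it was 0.00. Thus 1 array decided whether the mean of ATG8 was 0.56 or 0.00, and limma's tests without either array did not pass. In these means the dyes no longer cancel, so they cannot be set against the smallest call on all 4 arrays.

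The enzymes that attach Atg8 did not follow a common sign. ATG7, the activating enzyme of both conjugation systems, was below 0 on arrays 1 and 3 (-0.29, -0.36) and above it on arrays 2 and 4 (0.41, 0.11; mean -0.03 ± 0.36, adjusted p = 0.98). ATG3, the conjugating enzyme for Atg8, had -0.14, 0.72, 0.13 and -0.07 on arrays 1 to 4 (mean 0.16 ± 0.39, adjusted p = 0.81). The protease gene ATG4, whose product trims Atg8, had -0.31, -0.09 and 0.00 on arrays 1, 3 and 4. No gene of this group passed.

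In the Atg12 system the gene of the ubiquitin-like protein had the lowest mean of all tested members. ATG12 had log2 ratios of -0.0048, -1.02, -0.13 and -0.10 on arrays 1 to 4, and its mean of -0.31 ± 0.47 did not pass (adjusted p = 0.41). Without array 2 the mean was -0.08. ATG5, to which Atg12 is joined, had 0.02, 0.70, -0.25 and 0.42 (mean 0.22 ± 0.42, adjusted p = 0.66). Their products act as 1 conjugate, and on arrays 1, 2 and 4 the values of the pair had opposite signs. On array 1 both values were near 0, and on array 3 both were negative.

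ATG10, the conjugating enzyme for Atg12, again divided by dye: arrays 1 and 3 gave -0.49 and -0.32, arrays 2 and 4 gave 0.09 and 0.19. Its mean was -0.13 ± 0.32. ATG16, whose product binds the conjugate, had 0.11, 0.03, 0.31 and -0.04 (mean 0.10 ± 0.15). Neither gene passed, with adjusted p values of 0.88 and 0.92.

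Members that act in the vacuole were not called. The amino acid exporter gene ATG22 had 0.13, -0.67, 0.30 and 0.37 on arrays 1 to 4. Its mean was 0.03 ± 0.48, and 0.27 without array 2, where the single negative value lay. The carboxypeptidase gene ATG42 had -0.02, -0.25, 0.40 and 0.18 (mean 0.08 ± 0.28, adjusted p = 0.95). ATG15, the lipase that opens the delivered vesicle, had 0.33, 0.39 and 0.10 on arrays 1, 3 and 4, all positive, and was not tested.

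A further pair of members has other roles. ATG26 encodes a sterol glucosyltransferase that bulk autophagy in this yeast does not need. It had 0.04, 0.69, 0.38 and 0.05 on arrays 1 to 4, positive throughout, with a mean of 0.29 ± 0.31 (adjusted p = 0.47). ATG41 had -0.14, 1.05, -1.14 and -0.08, the largest SD among the members at 0.89 around a mean of -0.08. Its highest and lowest values came from arrays of opposite dye.

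A question behind this gene set was whether autophagy genes follow the vacuolar hydrolases. The hydrolase list, drawn up for this comparison, holds 14 genes of proteases, phosphatases and other digestive enzymes, of which 12 were tested. It was chosen with earlier results of these data known, so its counts and median only describe these data. It shares ATG15 and ATG42 with the members. PRB1 and AMS1 rose and none fell, so that 2 of 12 were called, beside 1 of 26 ATG genes and 3.15% of all genes. The medians were 0.08 for the ATG genes, 0.18 for the hydrolases and -0.01 for all genes, and the difference between the lists was not tested.

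PRB1, the vacuolar protease B, had log2 ratios of 0.47, 1.14, 0.49 and 0.99 on arrays 1 to 4 (mean 0.77 ± 0.34, adjusted p = 1.9e-04). AMS1, the alpha-mannosidase carried by Atg19 and Atg34, had 0.16, 1.17, 0.76 and 1.06 (mean 0.79 ± 0.45, adjusted p = 1.3e-04). Both genes were positive on every array. They also passed with a dye term (adjusted p = 0.010 and 0.015), in limma's fit that counts the arrays of a culture as separate replicates. With 1 array left out neither gene passed (0.10 to 0.47 and 0.11 to 0.86). PEP4, the protease that activates the others, and RNY1, a ribonuclease, fell outside the naming rule and were chosen after their values were seen. PEP4 had the most even values, 0.31, 0.33, 0.28 and 0.29, and its mean of 0.30 ± 0.02 did not pass (adjusted p = 0.44) with the standard error that limma gave all genes alike. RNY1 had 1.10, -0.32, 0.98 and 0.20 (adjusted p = 0.072).

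Among the inhibitors of these hydrolases, 2 of 3 genes rose, beside 2.35% of all genes. PBI2, the inhibitor of protease B, rose with values of 1.06, 1.24, 0.78 and 0.78 (mean 0.96 ± 0.22, adjusted p = 4.8e-07). TFS1, the inhibitor of carboxypeptidase Y, rose with 0.80, 0.32, 0.76 and 0.71 (mean 0.65 ± 0.22, adjusted p = 0.0038). Each was positive on all 4 arrays. PAI3, the inhibitor of Pep4, had a mean of 0.34 ± 0.39 and did not pass (adjusted p = 0.34). With 1 array left out PBI2 and TFS1 passed without array 2 (adjusted p = 0.044 and 0.049) and not without array 1, 3 or 4 (0.083 to 0.12 and 0.43 to 0.74).

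Cargo of the cytoplasm-to-vacuole pathway had 1 of 4 genes called, AMS1, beside 3.15% of all genes. APE1, the aminopeptidase that Atg19 carries, had 0.27, 0.81, 0.28 and 0.49 on arrays 1 to 4 (mean 0.46 ± 0.25, adjusted p = 0.10). LAP3, a cysteine aminopeptidase, had a mean of 0.23 ± 0.24 and was positive on all 4 arrays (adjusted p = 0.64). APE4, a further aminopeptidase, had values of -0.14, -0.17, 0.05 and 0.02 and a mean of -0.06 ± 0.11 (adjusted p = 0.97). LAP3 and APE4 lie outside the naming rule and were added after their values were seen, to complete the list.

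**Figure D2:**
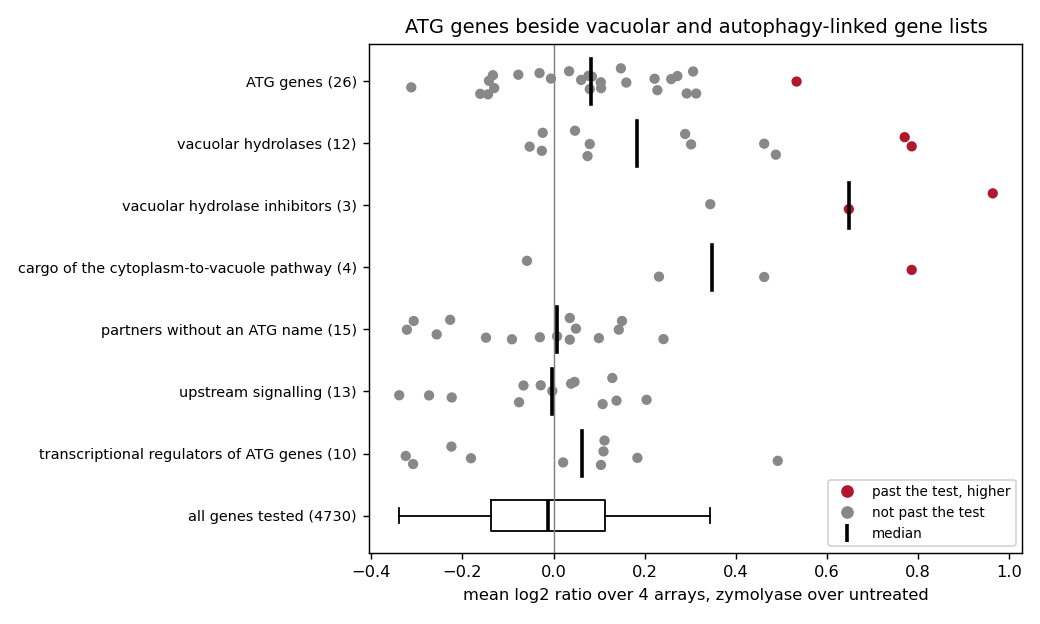
Mean log2 ratio over the 4 arrays (x axis) of each tested gene in the ATG set and 6 other lists, with the number tested in brackets, red points for genes past the test, grey points for the rest and black bars for list medians; the box of all 4730 genes runs from quartile to quartile with whiskers at the 5th and 95th percentiles. ATG34 is the only red point of the ATG row, and the hydrolase and inhibitor rows reach further right, to 0.79 and 0.96.

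Autophagy proteins without an ATG name showed no call. The list held 20 partners, such as kinase subunits and the proteins that fuse the autophagosome with the vacuole. Of these, 15 were tested and none passed, beside 3.15% of all genes, and the median was 0.01. At an unadjusted p under 0.05, 1 gene passed, VPS15, beside 12.5% of all genes. The largest means were those of VPS15, the regulatory subunit of the lipid kinase, at -0.32 ± 0.39 (adjusted p = 0.39) and of the fusion protein gene YKT6 at -0.31 ± 1.12 (adjusted p = 0.43). Without array 2 they were -0.13 for VPS15 and 0.04 for YKT6. YKT6 changed sign with the dyes, at 0.80 and 0.50 on arrays 1 and 3 but -1.35 and -1.18 on the others. SNX4 had a mean of 0.01 ± 0.25. VPS30 had -0.24, 0.19 and -0.10 on arrays 1, 3 and 4 and was not tested.

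Upstream lie the kinase complex TORC1, which holds autophagy off in rich medium, and linked nutrient signalling genes. Of these genes 0 of 13 were called, beside 3.15% of all genes, and the median was 0.00. Only MEH1 passed at an unadjusted p under 0.05, beside 12.5% of all genes. With a dye term none passed the adjusted threshold, beside 1.63% of all genes. MEH1, which anchors the nutrient-sensing complex at the vacuole, had the largest mean, with -0.44, -0.60, -0.30 and -0.02 on the arrays (mean -0.34 ± 0.25, adjusted p = 0.35). KOG1, a TORC1 subunit, had a mean of -0.27 ± 0.49, and of -0.03 without array 2.

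Of 12 transcriptional regulators linked to ATG genes, 10 were tested and none passed (median 0.06), beside 3.15% of all genes. At an unadjusted p under 0.05, MSN2 and SIN3 passed, in opposite directions, beside 12.5% of all genes. The stress factor gene MSN2 had 0.07, 1.08, 0.48 and 0.34 on arrays 1 to 4, positive on each (mean 0.49 ± 0.43, adjusted p = 0.068). SIN3, part of the repressor complex that Ume6 brings to ATG8, had a mean of -0.32 ± 0.65 (adjusted p = 0.38), and of -0.01 without array 2.

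List medians differed between arrays in another way for the ATG genes than for the hydrolases. On arrays 1 to 4 the ATG median was -0.02, 0.42, 0.04 and 0.09. The hydrolase median was 0.22, -0.01, 0.28 and 0.26, and that of all genes -0.03, 0.07, -0.03 and -0.02. The ATG median was thus highest on array 2, where the hydrolase median was lowest. The hydrolases themselves divided there, with 6 of the 12 tested above 0 and the rest below. PRB1 and AMS1 had their highest values on array 2 (1.14 and 1.17), whereas CPS1 and DAP2 had their lowest (-0.48 and -0.59). Without array 2 the medians were 0.02 for the ATG genes, 0.23 for the hydrolases and -0.03 for all genes.

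**Figure D3:**
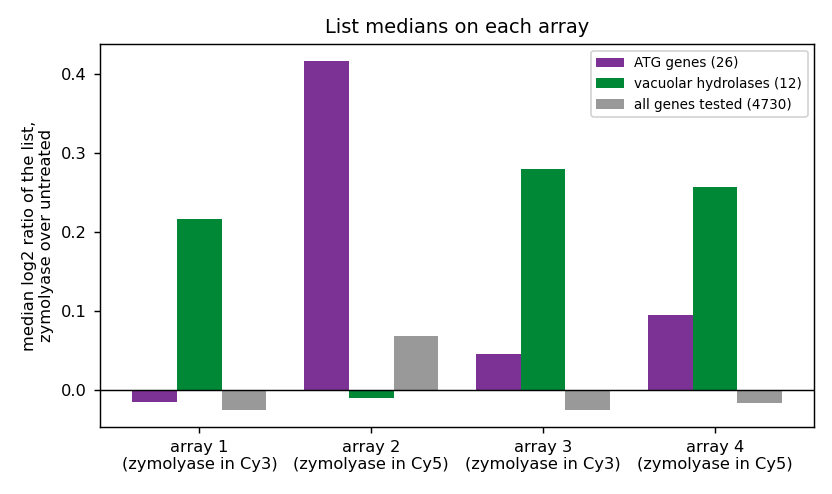
Median log2 ratio of zymolyase over untreated (y axis) on each array (x axis) for the 26 tested ATG genes, the 12 tested vacuolar hydrolases and all 4730 genes tested. The ATG bar reaches 0.42 on array 2 and stays at or below 0.09 on the other arrays, whereas the hydrolase bar is at -0.01 on array 2 and between 0.22 and 0.28 elsewhere.

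The dye orientation moved with the members' values. The ATG median over arrays 1 and 3, where Cy3 marked the treated RNA, was -0.04, and over arrays 2 and 4 it was 0.23. The hydrolases had 0.28 and 0.06 in these orientations, and all genes -0.02 and 0.01. Gene by gene the hydrolases had no such lean: the Cy5 mean was above the Cy3 mean in 6 of 12. This held for 16 of the 26 members and 2465 of the 4730 genes. The median of the Cy3 mean minus the Cy5 mean was -0.29 for the members, 0.0025 for the hydrolases and -0.02 for all genes. In 18 of the 26 members (69.2%) either orientation's mean lay further from the treatment mean than the treatment mean lay from 0. This was so for 58.9% of all genes. The part of the dyes in these values was not tested.

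Signs that split cleanly by orientation occurred in both directions. A negative value on both Cy3 arrays with a positive value on both Cy5 arrays was found for 5 members (19.2%), ATG7, ATG10, ATG11, ATG33 and ATG36, beside 15.8% of all genes. The opposite pattern was found for 1 member, ATG21 (3.85%), beside 12.7% of all genes. Were the ratios turned for the dye exchange before deposit, ATG33 and ATG41 would be the members called, both lower, at -0.57 and -0.56.

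Across the 26 members, arrays 1 and 3 correlated at r = 0.29 and arrays 2 and 4 at r = 0.38, each pair sharing its dye orientation. Pairs of opposite orientation lay between r = -0.49 (arrays 1 and 2) and 0.16 (arrays 3 and 4). The split by dye was not particular to the members. Over all 4730 genes, arrays 1 and 3 correlated at r = 0.60 and arrays 2 and 4 at r = 0.44. Pairs of opposite orientation then lay between r = -0.13 (arrays 1 and 2) and 0.05 (arrays 1 and 4). These values are across genes, which are not independent replicates, and arrays of a pair share either their dye orientation or, for some of the opposite pairs, a culture.

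**Figure D4:**
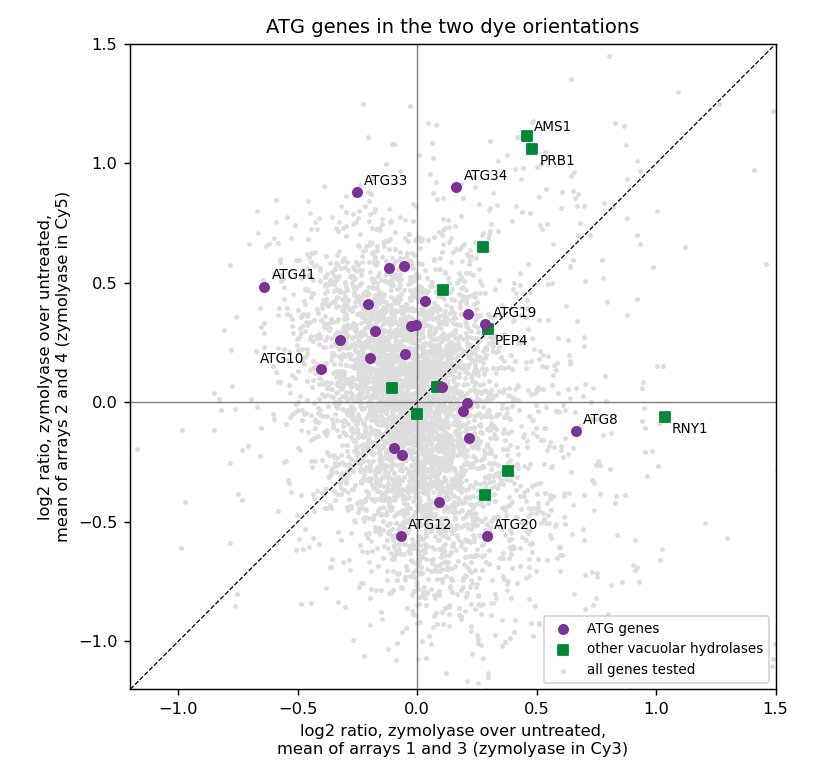
Mean log2 ratio with zymolyase in Cy3 (arrays 1 and 3, x axis) against that with zymolyase in Cy5 (arrays 2 and 4, y axis) for the tested ATG genes, the other tested vacuolar hydrolases and all genes tested, with the line of equal values dashed; genes beyond the frame are not drawn. ATG33 and ATG41 lie left of 0 and above it, ATG8 and ATG20 right of 0 and below it, and ATG19 and PEP4 near the dashed line.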

How the data were processed

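The deposited table holds 1 log ratio per feature and array; the authors' values were taken as log2. Label protocols give Cy3 and Cy5 first-strand cDNA. Not given in the sources used here are scanner, normalization, blanking rule and numerator. Without intensities the signal over background is unknown, and precision is limited by the number of arrays. Of 6209 features, 2 controls were left out and 5711 matched R64 (57 by an older name).

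With arrays 2 and 4 turned, the 2 arrays of a culture were averaged and tested against 0 with limma 3.58.1 (R 4.3.3) over 4730 genes with 4 values. Which arrays come from 1 culture is not labelled, so both pairings were fitted. A call needs a Benjamini-Hochberg adjusted p under 0.05 in both, and the larger is given. Limma's infinite prior gave all genes 1 standard error (0.16). SDs are over 4 arrays holding 2 cultures. The p-values of the main calls rest on the spread between these cultures pooled over all genes, not on each gene's own spread. The dye-term fits take the 4 arrays as separate replicates, with no term for culture. The fit was checked on simulated data with changes larger than that of ATG34 and the same noise on every array. That check does not cover calls as small as ATG34 or the wider spread of array 2.

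Members and lists were chosen with earlier results of these data known. Named by rule were all members and, per other list, called genes and the 2 largest means. A mean given without 1 array is that of the other 3. Alternatives were turning, centring, scaling, pairing, dye term, filter and each array left out.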

Additional observations from a re-analysis of the deposited data

Results flagged for a closer look

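In 39 genes named here with 4 values each, the gap between the highest or lowest array and its nearest neighbour was set against the gene's whole range. ATG11 on array 2, at 0.5838, lay far above its other arrays, which ran from -0.03 to 0.05. ATG12 on array 2, at -1.0159, lay far below its other arrays, which ran from -0.13 to -0.0048. Chance marks about 1 gene in 20, so 2 of 39 is near that share. Array 2 also had the widest ratios over all features (SD 0.63), and its part in both values was not tested.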

How the results depend on the processing

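Of the settings tried, ATG34 remained past the test only with either pairing of arrays alone. Every called gene does so, since a call needs both pairings. The number of ATG genes higher was 0 with median centring, with equal spread, with a dye term, with a dye term over genes measured on 3 or 4 arrays, and with any 1 array left out. The number lower was 0 under all of these. Taking the ratios as turned before deposit gave 0 ATG genes higher and 2 lower, with a median of -0.145 for the ATG genes and 0.0012 for the hydrolases. It changed the sign of the mean in 17 of the 26 members. Among named genes called in either setting it turned ATG34 (-0.37), ATG33 (-0.57, called), PRB1 (-0.29), AMS1 (-0.33), PBI2 (-0.044) and YKT6 (0.96, called). Over all genes it gave 215 higher and 101 lower. Median centring gave 83 and 14, equal spread 86 and 12, the dye term 68 and 9, and the dye term over genes measured on 3 or 4 arrays 73 and 9. With 1 array left out, 9 to 33 genes were higher and 0 to 3 lower, without any ATG gene among them. Fewer arrays and dyes that no longer cancel go with these fits. The ATG median, with the arrays weighted by culture, then lay between 0.0034 and 0.13, and the hydrolase median between 0.14 and 0.23. In 15 of the 26 members the mean changed sign with some array left out, and in 2 with equal spread. The other 11 kept 1 sign under every setting but that of earlier turning. The cause of these changes was not tested.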
